A study of Zea mays with 24 samples.

Results

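The 100 probes described here gave a ratio of one sign on all 3 arrays that set cold against control RNA of the maize variety PR39B29, while the median ratio of each of the varieties Picker, Fergus and Codisco had the other sign. They were chosen by these values. Of 43393 maize probes on the array, 12708 (29.3%) had a value on all 12 arrays of this kind, 1226 of them (9.65%) met the rule on signs, and the 100 with the largest distance between the PR39B29 median and the mean of the other 3 medians were taken. On the reading of the ratios used here, 82 were higher in the cold in PR39B29 and lower in the others, and 18 were lower in PR39B29 and higher in the others. Probes of the study's own lists of differentially expressed genes, and probes named after plastid ribosomal, RNA polymerase and photosystem genes, were left out, and none of the 1226 belonged to these.

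Primary roots of the 4 varieties were grown under a control regime with a warmer period at 18 °C and a cooler one at 12 °C, or a cold regime with 12 °C and 6 °C. Picker and PR39B29 were the varieties of higher chilling tolerance, and Fergus and Codisco those of lower tolerance. RNA was hybridised in pairs to 24 arrays of 2 colours, in 3 loops that each hold 1 independently grown replicate. Every loop had 4 direct arrays, on which both RNAs came from one variety, and 4 linking arrays, on which the cold and the control RNA came from different varieties (cold PR39B29 against Codisco, Picker against PR39B29, Fergus against Picker, Codisco against Fergus). The labels give an age of 8 days and the study's methods a day soon after germination, so that the age of the roots is not settled. An array gives ratios and no levels, so the identity of the tissue could not be checked through root markers, and fewer cells of a type cannot be told apart from less RNA per cell.

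Maize is a crop of tropical origin, and low temperature slows the elongation of its roots. Plants that are chilled change the abundance of many transcripts, among them those for proteins that protect membranes and remove reactive oxygen, and varieties of one species can differ in both the speed and the direction of such changes. A transcript that rises in one variety and falls in the others is therefore a different thing from one that only rises less. Of the 100 probes, 76 were named after a tentative consensus of expressed sequences, against 78.3% of all probes with 12 values, 6 after an assembly of genomic sequence, against 6.57%, and 18 after another sequence entry, against 15.1%. None matched a gene symbol of the maize reference table, beside 12 (0.0944%) of all probes with 12 values. None belonged to the organelle gene lists, in which only 1 probe had 12 values apart from those left out. Both zeros were thus almost fixed in advance. No product is known here for any of the 100, and they are reported by probe number. Each lay on a single spot of the slide. The spots were spread over 43 of the 48 blocks of the slide, with at most 6 in a block.

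All values below are log2 ratios. On direct arrays they were read as cold over control, as the order of names in the array titles gives it. That reading is the likely one but remains unsettled: in the dye labels Cy5 marked the cold RNA throughout, and read literally they turn the sign of every direct array. The contrast between PR39B29 and the other varieties stays under that reading, with higher and lower swapped in all varieties. The signs of the linking arrays are the same under both readings. As turned here, within replicates 39 of the 48 pairs of direct with linking arrays were positively correlated across probes and 9 were negatively correlated (median Spearman's rho 0.38). Dyes were not swapped among the direct arrays, and a dye effect cannot be told apart from a response to cold.

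Some arrays stood apart, and several results rest on them. The PR39B29 direct array of replicate 2 and, on the linking side, Picker cold against PR39B29 control of replicate 2 were almost identical (Pearson's r = 0.987 as deposited over 22672 probes). Over 12675 of the probes with 12 direct values r was −0.998 with the direct array turned, against 0.845 at most in size for any other pair. As deposited, the 2 arrays had a median gap of 0.08 and a largest gap of 0.28 over the 100 probes. Whether one of the labels belongs to the other array was not tested. Another was the Codisco direct array of replicate 1, which ran with PR39B29 replicates 1 and 2 (rho = 0.76 and 0.73 over 12708 probes) and not with its own replicates 2 and 3 (rho = −0.02 and 0.03). It was not alone. PR39B29 replicates 1 and 2 ran with replicate 1 of the other varieties at rho between 0.18 and 0.76 (Fergus 0.41 and 0.28). Fergus cold against Picker control of replicate 1, without PR39B29 RNA, ran with PR39B29 replicates 1, 2 and 3 at rho = 0.67, 0.59 and 0.10. Replicates 2 and 3 of Picker, Fergus and Codisco ran with each other at rho between 0.44 and 0.83. PR39B29 replicates 1 and 2 ran with those 6 arrays at rho between −0.31 and 0.23, and PR39B29 replicate 3 at rho between 0.09 and 0.56, and with PR39B29 replicate 1 at rho = 0.20. These correlations are across probes, which are not independent replicates.

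**Figure D1:**
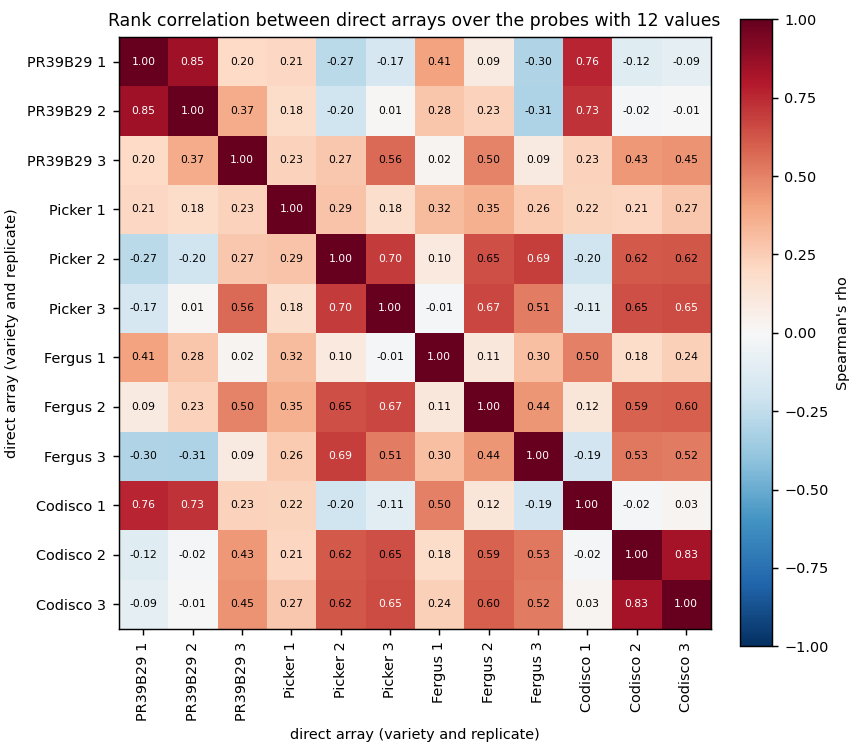
Spearman's rho between each pair of the 12 direct arrays over the 12708 probes with a value on all of them, with the arrays of PR39B29, Picker, Fergus and Codisco in order of replicate on both axes and colour from −1 to 1. PR39B29 replicates 1 and 2 and Codisco replicate 1 form one block of high correlation, and replicates 2 and 3 of the other varieties another.

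Among the 82 probes higher in PR39B29, the PR39B29 medians had a median of 1.41 (0.06 to 2.86). The medians of Picker had a median of −1.05, those of Fergus −1.28 and those of Codisco −1.66, with the lowest at −4.33, −4.82 and −5.10. Among the 18 probes lower in PR39B29 the medians were smaller in PR39B29, with a median of −0.73 (−1.52 to −0.26), and larger in the others, with medians of 1.31 in Picker, 1.62 in Fergus and 2.42 in Codisco. The ratio of Codisco lay farthest from 0 of the 3 other varieties in 53 of the 82 probes and in 13 of the 18. In the lower group the median PR39B29 ratio was thus the smallest of the 4 varieties in size. In 16 of the 82 probes and 6 of the 18 at least 1 of the 3 PR39B29 values lay within 0.2 of 0, and all 3 were beyond 1 in 18 of the 82 and in 0 of the 18.

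The 3 arrays of a variety varied widely. The SD over the 3 replicates had a median of 0.65 in PR39B29, 1.19 in Picker, 1.23 in Fergus and 1.85 in Codisco over the 82 probes, and of 0.38, 0.84, 2.22 and 2.14 over the 18. On Codisco replicate 1, 62 of the 82 probes were above 0 (median 0.95), and 16 of the 18 were below 0 (median −0.50). On Codisco replicates 2 and 3 none of the 82 was above 0 and all 18 were above 0. Picker replicate 1 and Fergus replicate 1 were mixed, with 32 and 35 of the 82 probes above 0, as in PR39B29. In Picker and Fergus the most uniform arrays were Picker replicate 2 and Fergus replicate 3, each with 81 of the 82 below 0 (medians −1.74 and −2.04). All 3 values had the sign opposite to PR39B29 in 39 of the 82 probes in Picker, 34 in Fergus and 20 in Codisco, and in 16, 15 and 2 of the 18.

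**Figure D2:**
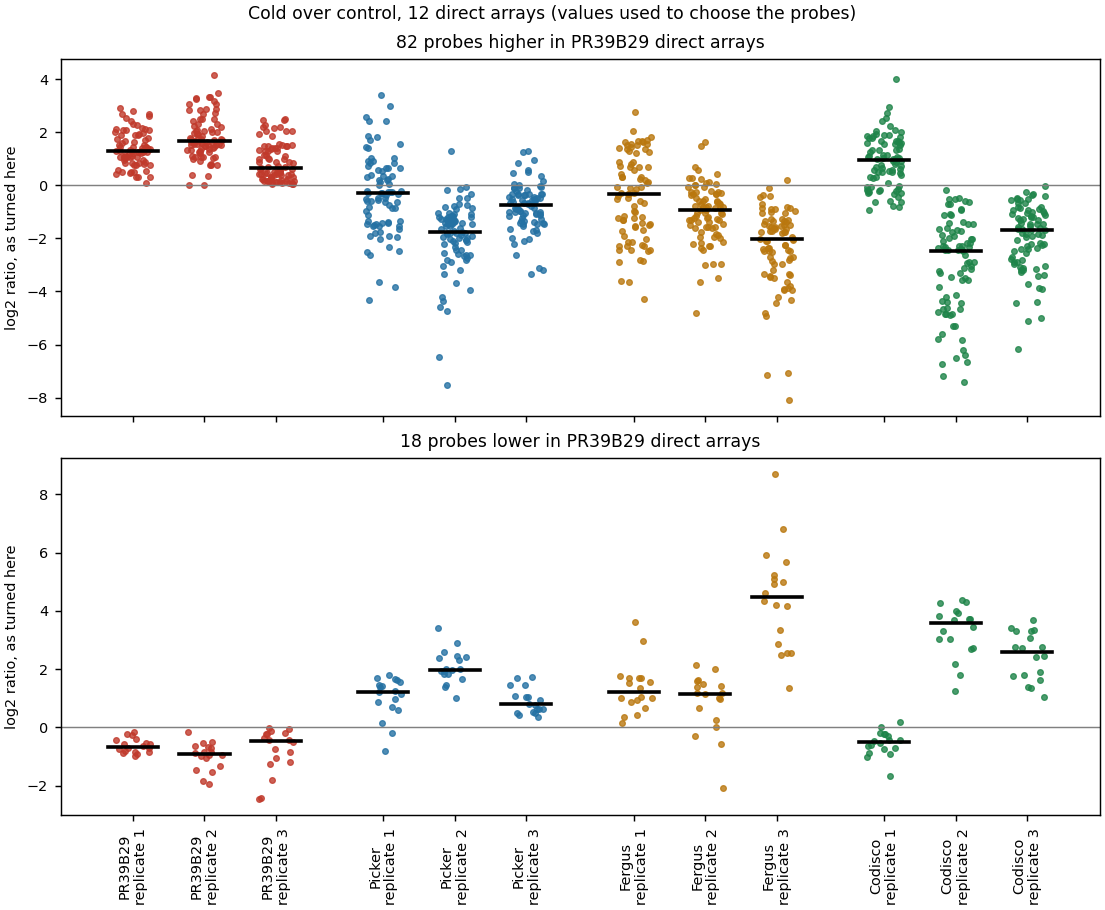
Log2 ratio of cold over control (y axis) of the 82 probes higher and the 18 probes lower in PR39B29 on each of the 12 direct arrays (x axis), with 1 point a probe and a bar at the median. The values chose the probes, so that the sign in PR39B29 is fixed, and Codisco replicate 1 lies on the side of PR39B29 with medians of 0.95 and −0.50.

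MZ00056406 had the largest distance, 6.40. Its PR39B29 ratios were 2.80, 4.14 and 1.40 in replicates 1, 2 and 3, those of Picker −1.44, −6.47 and −3.21, those of Fergus −1.32, −2.95 and −7.14 and those of Codisco 2.53, −4.66 and −6.17. Only Codisco replicate 1 overlapped with PR39B29. MZ00034353 came next, at 6.26, with 2.08, 2.25 and 0.98 in PR39B29, −4.33, −4.60 and −1.02 in Picker, 1.22, −4.82 and −8.08 in Fergus and 2.95, −6.67 and −3.38 in Codisco. Here Fergus replicate 1 and Codisco replicate 1 lay within or above the PR39B29 values. MZ00004563, at 6.06, gave 2.90, 2.86 and 1.42 in PR39B29, −0.87, −7.52 and −3.34 in Picker, −2.30, −2.96 and −3.92 in Fergus and 2.74, −3.30 and −4.45 in Codisco. All 3 arrays of Picker and of Fergus were below 0, and Codisco replicate 1 was again among the PR39B29 values.

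MZ00034365 (5.25) and MZ00023559 (4.63) were high on PR39B29 replicates 1 and 2 only. MZ00034365 gave 2.67, 3.05 and 0.07 in PR39B29, and MZ00023559 gave 2.55, 3.07 and 0.47. Both were above 0 on Codisco replicate 1 (1.80 and 1.91), and without replicate 2 of all varieties their distances were 2.74 and 2.28. The remaining probes of the first 10, MZ00013284 (4.25), MZ00042371 (4.15), MZ00012585 (3.92), MZ00014129 (3.85) and MZ00033506 (3.84), had PR39B29 medians between 0.46 and 2.14. In MZ00013284 the ratios of PR39B29 were small (0.46, 0.38 and 0.85), and those of the others reached −4.74 in Picker, −7.06 in Fergus and −7.20 in Codisco. MZ00042371 and MZ00012585 had a Picker replicate 1 at 3.40 and 2.97, above all 3 PR39B29 values of the same probe.

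MZ00004528 had the largest distance of the 18 probes lower in PR39B29, −3.79, and rank 11 of the 100. Its ratios were −0.24, −1.52 and −1.82 in PR39B29, −0.19, 1.00 and 1.45 in Picker, 3.61, 0.25 and 4.61 in Fergus and −1.68, 2.18 and 3.36 in Codisco. Codisco replicate 1 lay among the PR39B29 values, and Picker replicate 1 just above them. MZ00029056 (−3.22) was more uniform in PR39B29, at −0.91, −1.04 and −1.21, against 1.43, 1.94 and 0.63 in Picker, 1.69, 1.17 and 8.69 in Fergus and −0.88, 3.69 and 3.41 in Codisco. No value of the other varieties fell among those of PR39B29, although Codisco replicate 1 lay just above them. MZ00013946 (−3.04) and MZ00032279 (−2.97) varied more in PR39B29, with −0.55, −0.55 and −2.45 in the first and −0.98, −1.83 and −0.01 in the second.

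MZ00024963 (−2.64), MZ00018003 (−2.61), MZ00014618 (−2.53), MZ00025783 (−2.47), MZ00016650 (−2.32) and MZ00026352 (−2.32) complete the first 10 of this direction. Their PR39B29 values lay between −1.32 and −0.06. Fergus replicate 3 was the highest Fergus value in all 6, from 2.50 in MZ00025783 to 6.82 in MZ00024963, and Codisco replicate 1 was below 0 in 5 of them and at 0.03 in MZ00014618. In MZ00018003 the Picker values were 1.21, 2.89 and 1.08 and the Fergus values 0.88, 2.01 and 4.92, so that only Codisco replicate 1 (−0.61) overlapped with PR39B29 (−0.83, −0.64 and −0.36).

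**Figure D3:**
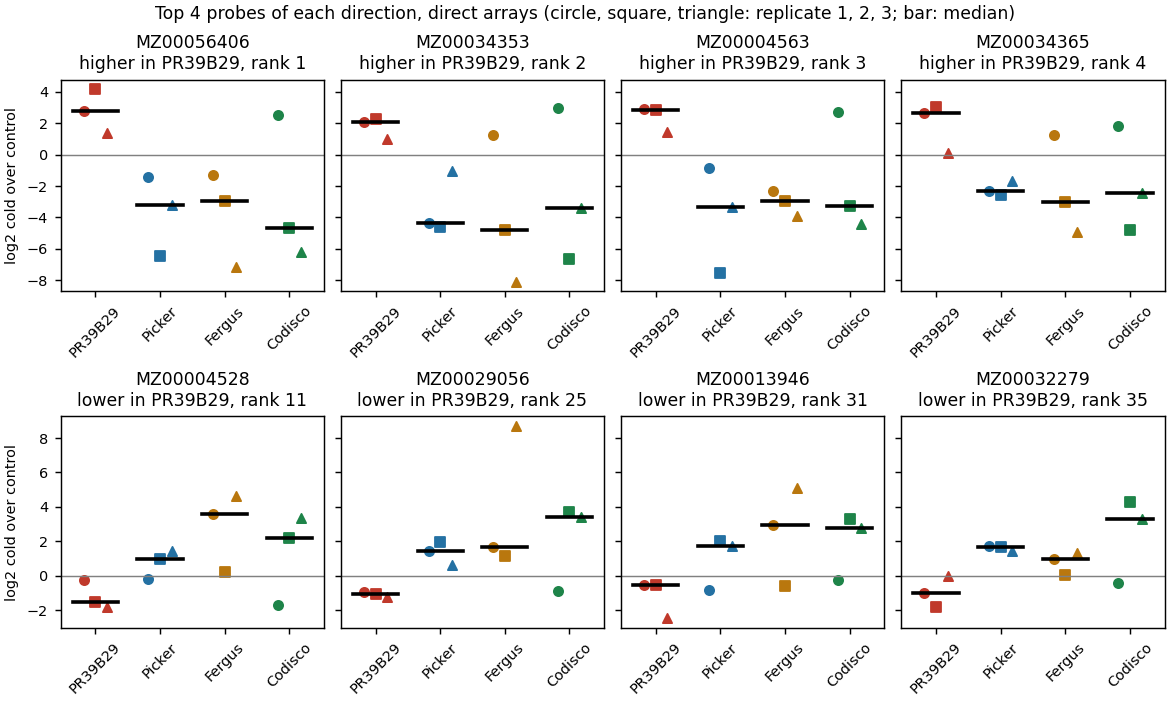
Log2 ratio of cold over control (y axis) on the direct arrays of each variety (x axis) for the 4 probes with the largest distance in each direction, with circles, squares and triangles for replicates 1, 2 and 3 and a bar at the median. In MZ00056406 every value of Picker and Fergus was below 0, while the circle of Codisco (2.53) lies among the PR39B29 values.

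In 7 of the 100 probes all 9 single values of the other varieties had the sign opposite to PR39B29. Of the 1226 probes that met the rule on signs, 55 did. In 27 of the 100 all 8 values without Codisco replicate 1 were opposite, but that array was left out after seeing the data. The matching count among the 1226 was not made. In the 78 of the 100 probes in which that array had the PR39B29 sign, the rule fixed the sign of Codisco replicates 2 and 3. Nothing is read from the 27. The 7 were MZ00013284, MZ00039361, MZ00016490, MZ00014629 and MZ00037022, higher in PR39B29, and MZ00014618 and MZ00014779, lower in it. Apart from MZ00013284 and MZ00014618 they were named after their values were seen. MZ00016490 and MZ00037022 had the largest PR39B29 medians of the 7, with 0.95, 1.32 and 1.42 and at 0.32, 1.11 and 1.28. MZ00016490 gave −1.90, −1.19 and −0.64 in Picker, −2.14, −1.49 and −2.46 in Fergus and −0.44, −2.39 and −1.30 in Codisco. MZ00014629, by contrast, was within 0.2 of 0 on all 3 PR39B29 arrays (0.10, 0.01 and 0.16). The other 93 probes had 6 to 8 of the 9 values on the opposite side.

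A few of the probes had neighbouring numbers in the oligonucleotide collection, and these 4 pairs ran alike over the 12 direct arrays. MZ00024963 and MZ00024964, lower in PR39B29, had a Pearson's r of 0.992 over the 12 arrays. The pairs higher in PR39B29 were MZ00042850 and MZ00042851 (r = 0.991), MZ00027193 and MZ00027194 (r = 0.867) and MZ00040229 and MZ00040230 (r = 0.744). The choice by sign makes a positive r likely for any such pair. Whether neighbouring numbers share sequence, and so count one transcript more than once, is not known here. MZ00042850 and MZ00042851 were above 0 on all 3 PR39B29 arrays (1.53, 3.18 and 2.15, and 1.35, 2.85 and 2.49). They were also above 0 on Picker replicate 3 (1.30 and 1.26), Fergus replicate 1 (1.55 and 1.69) and Codisco replicate 1 (1.60 and 1.64). In replicate 1 the PR39B29 value of each probe lay below those of Fergus and Codisco.

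The limit at rank 100 separates probes that hardly differ. MZ00024964 at rank 99 had a distance of −2.13 (PR39B29 median −0.57) and MZ00026451 at rank 100 one of 2.13 (0.96), while MZ00017121 and MZ00026306 at ranks 101 and 102 stood just outside at −2.12 (−0.65 and −1.12). The median distance over the 1226 probes that met the rule was 1.12 in size. Over the 100 it was 2.62, and in 33 of the 100 it was above 3.

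Taken by replicate, the distance between PR39B29 and the mean of the other 3 varieties had the same sign in every replicate for all 100 probes, which the choice largely fixes. Its median over the 82 probes was 1.30 in replicate 1, 3.63 in replicate 2 and 2.49 in replicate 3, and over the 18 it was −1.26, −3.17 and −3.11. All 3 other varieties had the opposite sign in only 9 of the 82 and 2 of the 18 in replicate 1, against 70 and 15 in replicate 2 and 72 and 18 in replicate 3. When the same rule on signs was applied with another variety in the place of PR39B29, it kept 203 probes for Picker (1.60%), 84 for Fergus (0.661%) and 119 for Codisco (0.936%). Their largest distances were 2.04, 2.37 and 2.57 in size, against 6.40 for PR39B29. These counts and distances use the values that chose the probes and were not tested. The rule asks for one sign on all 3 arrays of the variety. PR39B29 replicates 1 and 2 ran together at rho = 0.85, and Codisco replicate 1 with its replicates 2 and 3 at rho = −0.02 and 0.03. How far the counts follow from such arrays was not tested. Without Codisco replicate 1 the rule kept 1425 probes for PR39B29, and without PR39B29 replicate 2 it kept 1380. All 100 probes met it in both cases, and 89 and 81 of them stayed within the first 100. For PR39B29 replicate 2 they met it by construction. For Codisco replicate 1 this holds for the 78 probes in which that array had the PR39B29 sign, since the median then fixed the sign of replicates 2 and 3. Without replicate 2 of all varieties 58 of the 100 met it (46 within the first 100), without replicate 3 of all varieties 65 (21), without replicate 1 of all varieties 93 (53), and with the mean in place of the median 86 (74). Without PR39B29 replicate 3 it kept 3379 probes, and 27 of the 100 stayed within the first 100.

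A limma fit of 4 variety means to the 12 direct arrays called 0 of 12708 probes (0%) for PR39B29 against the mean of the others at an adjusted p (Benjamini and Hochberg) under 0.05, although 2141 had an unadjusted p under 0.05. The lowest adjusted p was 0.236. None of the 100 was called, and nothing is read from this, since the rule used the same contrast. Without Codisco replicate 1, an alternative chosen after seeing the data, the fit called 120 probes (0.915%), 29 of them among the 100, from which nothing is read either. Without PR39B29 replicate 2 it called 0 (934 at an unadjusted p under 0.05).

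The linking arrays were not used to choose the probes. They hold RNA of the same plants as the direct arrays, and none sets PR39B29 cold against PR39B29 control, so that each ratio joins a cold response with a difference between 2 varieties. PR39B29 cold RNA was set against Codisco control RNA. There the 3 replicates went different ways. In replicate 1, 78 of 81 probes of the higher group were above 0 (median 1.90) and all 18 of the lower group were below 0 (median −0.88), the signs of the PR39B29 direct arrays. In replicate 2 the signs were mostly turned, with 3 of 81 above 0 (median −2.10) and 12 of 18 above 0 (median 0.74). In replicate 3, 55 of 81 were above 0 (median 0.68) and 12 of 18 were below 0 (median −0.35). The PR39B29 sign was thus general on replicate 1, present in the larger number of probes on replicate 3 and absent from most on replicate 2.

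MZ00056406 was at 2.91, −6.17 and −0.69 on these 3 arrays, and MZ00004563 at 3.78, −6.29 and −1.06. MZ00034353 was at 4.55, −2.39 and 1.47. In MZ00013284 all 3 were below 0 (−0.82, −5.33 and −7.20), opposite to its direct arrays of PR39B29. MZ00029056, lower in PR39B29, was at −1.26, 0.05 and −0.99, and MZ00018003 at −1.56, −0.02 and −0.30. The first 10 probes of each direction thus had their PR39B29 sign on replicate 1, except MZ00013284, and the opposite sign on replicate 2, except MZ00018003 and MZ00014618, which were there near 0 (−0.02 and −0.01).

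On the linking arrays of Fergus cold against Picker control, which hold no PR39B29 RNA, 69 of 80 probes of the higher group were above 0 in replicate 1 (median 0.78), as in PR39B29. Only 7 of 82 were above 0 in replicate 2 (median −1.25) and 4 of 77 in replicate 3 (median −1.56). The lower group was above 0 in replicates 2 and 3 (17 of 18 and 18 of 18, medians 1.40 and 3.35) and mixed in replicate 1 (10 of 17, median 0.31). Picker cold against PR39B29 control gave medians of −0.01 and −0.36 for the higher group in replicates 1 and 3, and 0.76 and 0.26 for the lower group. Replicate 2 of this kind is the near copy of the PR39B29 direct array (−1.74 and 0.96). Codisco cold against Fergus control gave −0.42, 0.30 and −0.38 for the higher group and 0.48, 0.62 and 0.91 for the lower group. Without the near copy, the higher group was split in Picker cold against PR39B29 control of replicate 1 (40 of 81 above 0), and its median changed sign between replicates in the other 3 kinds of linking array.

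**Figure D4:**
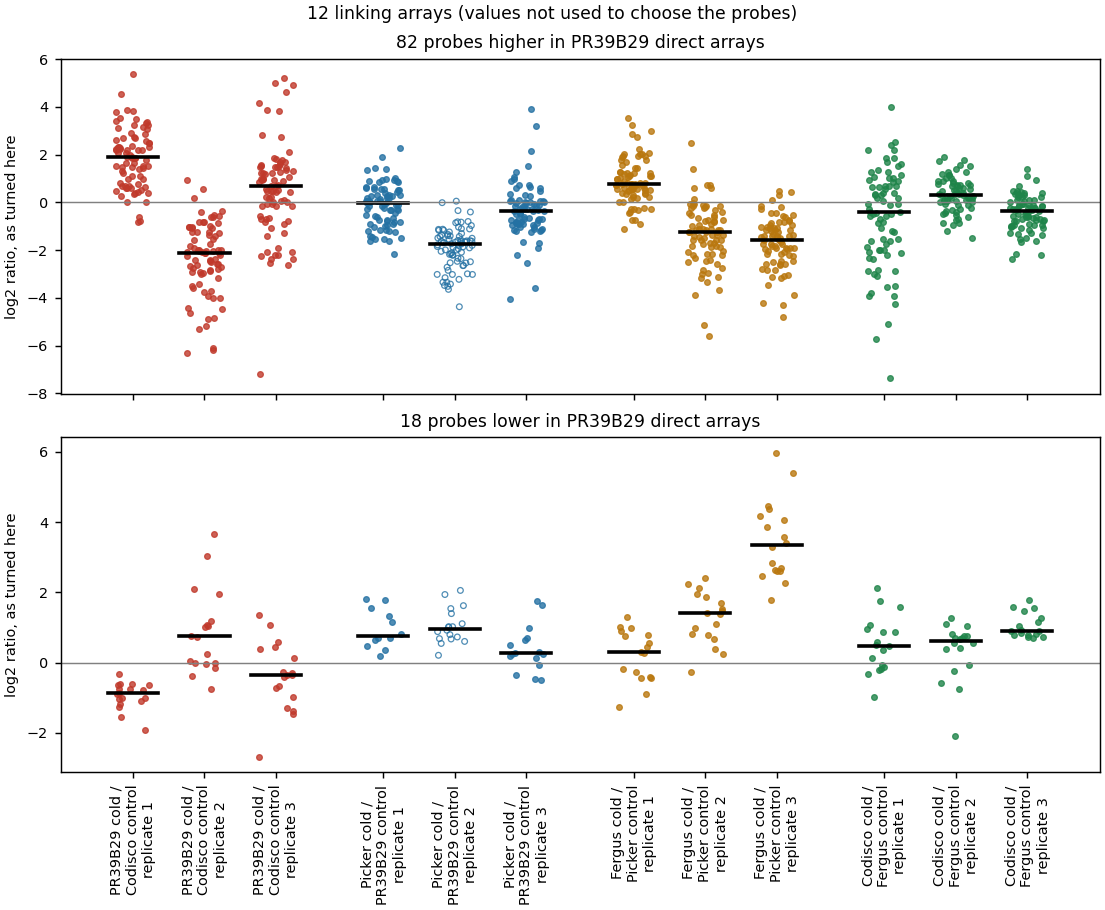
Log2 ratio (y axis) of the 82 and the 18 probes on the 12 linking arrays (x axis, kind and replicate), with 1 point a probe with a value and a bar at the median. Open points mark the array that nearly copies a direct array and was left out of the fit. PR39B29 cold against Codisco control lies at a median of 1.90 in replicate 1, −2.10 in replicate 2 and 0.68 in replicate 3 for the higher group.

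These shares are read beside those of all 6399 probes with 12 values (50.4%) that had one sign on the 3 PR39B29 arrays. On PR39B29 cold against Codisco control the PR39B29 sign was found in 97.0%, 9.09% and 67.7% of the 100 probes with a value in replicates 1, 2 and 3, and in 84.2%, 46.4% and 82.4% of the 6399. In replicate 1 the share of the 100 was the higher one, and in replicates 2 and 3 the lower one. On Fergus cold against Picker control the shares were 78.4%, 8.00% and 4.21% against 76.1%, 55.3% and 44.0%. On Codisco direct replicate 1 the PR39B29 sign was present in 78.0% of the 100 and in 86.2% of the 6399. If the direct arrays are read by the dye labels, each share of a linking array becomes the share of the opposite sign.

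**Figure D5:**
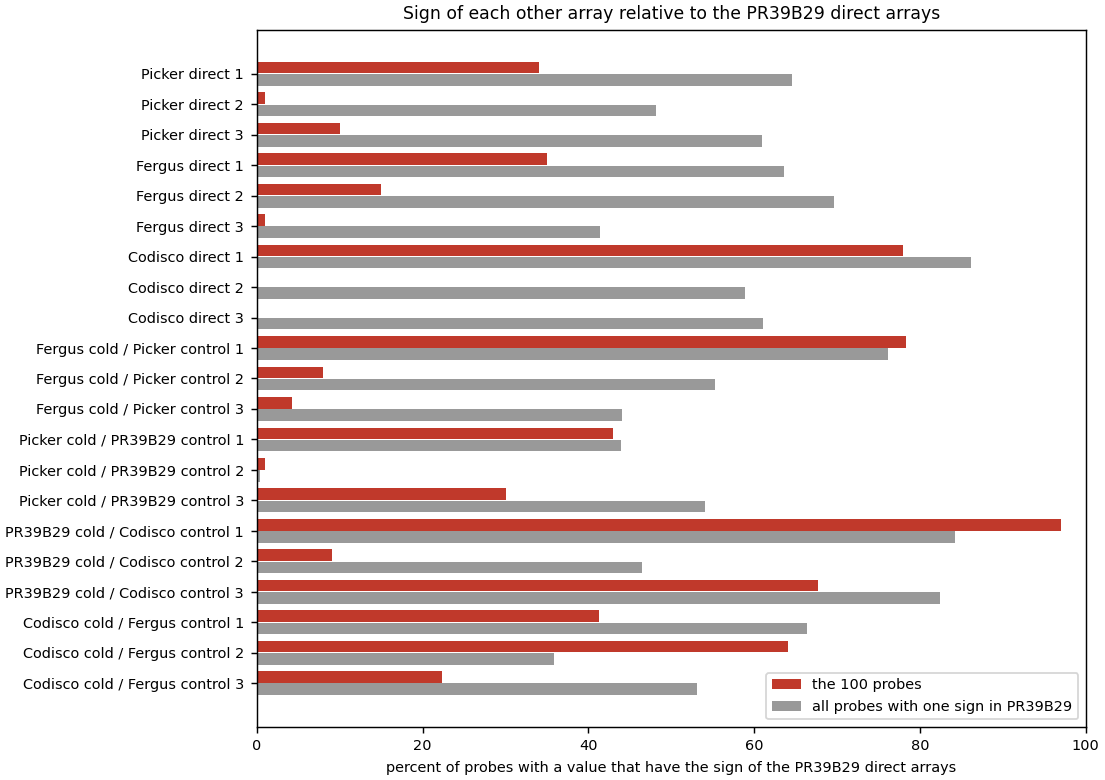
Percent of probes with a value (x axis, from 0 to 100) that had the sign of the PR39B29 direct arrays on each other array (y axis, kind and replicate), in red for the 100 probes and in grey for all 6399 probes with one sign in PR39B29. The red bars of the direct arrays were shaped by the choice, and those of PR39B29 cold against Codisco control run from 97.0% to 9.09%.

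The sum around a loop of linking arrays cancels the differences between varieties and leaves the mean cold response of the 4 varieties. It was fitted with limma on 11 linking arrays, without the near copy, for the 11163 probes with a value on all of them, and 264 (2.36%) were called at an adjusted p under 0.05, 197 higher and 67 lower in the cold. These calls fell to 0 with the replicate number as a block, to 1 with all 12 linking arrays, and to 28, 19 and 0 without replicates 1, 2 and 3. Of the 100 probes 69 could be tested (58 and 11), and none was called. An unadjusted p under 0.05 was reached by 10 of them (14.5%), 4 higher and 6 lower, beside 24.4% of all probes tested, and the lowest adjusted p among the 69 was 0.0595. The mean cold response had a median of −0.12 over the 58 probes, 23 of which were above 0 and 35 below, and of 0.53 over the 11, all of them above 0. The median over all 11163 probes was 0.02. Without replicate 2 the median of the higher group was 0.092, and without replicate 1 it was −0.54.

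The 11 tested probes of the lower group were thus above 0 in the mean over varieties. On the direct arrays so were the medians of the other 3 varieties in the reading used here, or PR39B29 if the dye labels are read literally. The linking arrays hold RNA of the same plants, and the choice took probes by these direct values. Nothing independent is read from this likeness. No single probe passed the test. MZ00018003 had a mean of 1.00 ± 0.28 (SE, limma adjusted p = 0.074), MZ00013946 one of 1.16 ± 0.33 (limma adjusted p = 0.0767) and MZ00014618 one of 0.84 ± 0.24 (limma adjusted p = 0.0805). MZ00024963 was at 0.93 ± 0.31 and MZ00004528 at 0.84 ± 0.50. Among the first 10 of the higher group 5 could be tested. MZ00042371 and MZ00012585 were lowest at −1.23 ± 0.83 and −1.24 ± 0.58, and MZ00033506 was at 0.01 ± 0.54. The first 3 probes by distance lacked a value on at least 1 of the 11 arrays. With the arrays scaled to a common spread the fit called 713 probes (6.39%), among them 6 of the 69 (8.70%), which is near the share over all probes. By group, 4 of the 11 in the lower group were called higher in the cold, and 2 of the 58 in the higher group were called lower. Over all 11163 probes 488 were called higher and 225 lower. Nothing is read from this split, since the choice used direct arrays with RNA of the same plants.

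Single kinds of linking array were taken from the same fit. PR39B29 cold over Codisco control had 343 called probes (3.07%), 240 higher and 103 lower, and 161 with the replicate number as a block. Of the 69 tested probes 10 (14.5%) had an unadjusted p under 0.05, beside 26.8% of all probes, and 1 was called, beside 3.07% of all probes. It was MZ00001228, rank 56, named after its value was seen. On the linking arrays it was at 2.62, 0.93 and 1.33 (mean 1.63 ± 0.37 SE, limma adjusted p = 0.0458). Its direct ratios were 0.82, 1.61 and 2.05 in PR39B29, −1.53, −1.92 and −0.11 in Picker, 0.68, −0.01 and −0.44 in Fergus and 0.92, −1.41 and −1.29 in Codisco. The call was lost without each of the replicates 1, 2 and 3 (limma adjusted p = 0.0996, 0.0581 and 0.684), with the arrays scaled to a common spread (limma adjusted p = 0.216), with the variance filter (limma adjusted p = 0.0790) and with 2 values of each kind of array sufficing (limma adjusted p = 0.0527). With the replicate number as a block it was also lost (limma adjusted p = 0.0548). The Picker cold over PR39B29 control values of MZ00001228 were −1.63, −1.70 and −0.83, with replicate 2 the near copy.

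Fergus cold over Picker control had 8 called probes (0.0717%), Picker cold over PR39B29 control 4 (0.0358%) and Codisco cold over Fergus control 0 (0%, with 645 at an unadjusted p under 0.05 in limma). None of the 69 was called in any of these. An unadjusted p under 0.05 was reached by 11, 1 and 3 of them (15.9%, 1.45% and 4.35%), beside 11.3%, 8.60% and 5.78% of all probes. Over the 11 probes of the lower group the median was 1.59 for Fergus cold over Picker control, 0.59 for Picker cold over PR39B29 control and 0.68 for Codisco cold over Fergus control, and −0.14 for PR39B29 cold over Codisco control. Over the 58 of the higher group the medians were −0.63, −0.28, −0.11 and 0.091, beside 0.0025, 0.043, −0.015 and 0.049 over all 11163 probes. PR39B29 cold over Codisco control was thus the one kind in which the medians of both groups had the sign of the PR39B29 direct arrays. That sign turned for the higher group without replicate 1 (−0.76) and without replicate 3 (−0.18), and for the lower group without replicate 1 (0.31).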

How the data were processed

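Root RNA was measured on 24 arrays of 2 colours. The authors used CARMAweb, a front end to limma (versions not given in the sources used here), for background correction by the minimum method, print-tip loess within arrays and scaling between them. Flagged bad spots were dropped, and the log2 ratio (M-value) of each spot was deposited by the authors. A second deposited table names the spots, and its 96 columns of values for single slides match no sample label and were not used. How far a spot lay above background is therefore not known here, and the number of arrays limits the precision. An array held a value for 18268 to 43108 probes.

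Repeated spots of a probe were averaged, and the M-values of direct arrays were turned in sign. The probes, and the choice of tests, were made with earlier results of these data known. Named are the first 10 probes of each direction, members of the organelle lists or with a reference gene symbol (none), probes called on the mean over the loop (none), and the 2 probes on each side of the rank limit. Contrasts were fitted with limma 3.58.1 (R 4.3.3) over all probes with a value on every array used, with Benjamini and Hochberg adjustment and a threshold of 0.05. Tables and figures were made with Python 3.11.15, pandas 2.3.3, numpy 2.4.6 and matplotlib 3.10.9. The fit of the mean over the linking loop was tested on simulated data of 11163 probes, in which it recovered 70% of 50 probes changed by 1 and all of those changed by 2, 4 or 8 on the log2 scale, with 10 false calls in all. The simulation had independent normal noise that the real arrays do not have. Alternatives were other scalings, the mean for the median, filters on missing values and variance, a block for the replicate number, and leaving out replicates. Leaving out Codisco replicate 1 was added after seeing the data.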

Additional observations from a re-analysis of the deposited data

Results flagged for a closer look

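In 7 probes every PR39B29 direct array had one sign and all 9 direct arrays of the other varieties had the opposite sign. The difference was not tested, since the probes were chosen on it. The PR39B29 median minus the mean of the other 3 medians was 4.25 in MZ00013284, 3.58 in MZ00039361, 2.87 in MZ00016490, 2.44 in MZ00014629 and 2.32 in MZ00037022. It was −2.53 in MZ00014618 and −2.15 in MZ00014779. Some single values were near 0. MZ00014629 was at 0.10, 0.01 and 0.16 in PR39B29, so that its distance came from the other varieties. MZ00014618 was at 0.03 on Codisco replicate 1. Over all 12708 probes with 12 values, 55 met this stricter rule on signs, all of them among the 1226 that met the rule used here. Groups of 3 arrays are too small for the search for single outlying arrays, which was not run.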

How the results depend on the processing

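The number of probes that met the rule on signs (1226) was 55 when all 9 single values had to be opposite and 1919 when 2 values in each variety sufficed. It ranged from 917 to 3379 when replicates were left out. The direct contrast of PR39B29 with the others called 0 probes, 0 to 120 with arrays left out (120, with 29 of the 100 probes, without Codisco replicate 1, and 0 to 2 otherwise) and 1 when each array was divided by its median absolute deviation, which was MZ00016490, 1 of the 100. The mean over the linking loop (264 of 11163 probes, 2.36%) became 713 with that scaling (6.39%), with 6 of the 69 tested of the 100 (8.70%). With the 40% of probes of largest variance it became 154 of 2134 (7.22%), a higher share. Among them was 1 of the 69 (1.45%), MZ00030444. It became 0 with 2 values of each kind, 1 with all 12 linking arrays, and 0 to 28 when replicates were left out. The causes were not tested. PR39B29 cold over Codisco control (343, 3.07%) became 8 with the scaling (0.0717%) and 186 of 2134 with the variance filter (8.72%). In both, 0 of the 69 tested of the 100 were called. It became 0 to 240 when replicates were left out, with 0 to 2 of the 100. The 2, without replicate 2, were MZ00015403 and MZ00036732. They were 2 of 76 tested (2.63%), near the 1.94% of all probes. With 2 values of each kind 0 of the 85 tested of the 100 were called, beside 1.78% of all probes. Fergus cold over Picker control (8) became 16 with the scaling and 0 to 1 when replicates were left out. Picker cold over PR39B29 control (4) became 80 with the scaling, 0 with all 12 linking arrays and 0 to 42 when replicates were left out. Codisco cold over Fergus control (0) became 110 with the scaling.

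Same-numbered arrays did not deviate together throughout: 11 of 18 direct and 6 of 15 linking pairs had a correlation over 0.1. Among pairs with different numbers, 11 of 36 direct and 7 of 30 linking pairs did. The median correlation on direct arrays was 0.27 for the same number and −0.17 for different numbers. On linking arrays it was 0.055 and −0.079. Arrays of one number were thus more alike, most clearly on direct arrays, and the main fits did not use this pairing. With the replicate number as a block the direct contrast called 0 probes and the mean over the loop 0. PR39B29 cold over Codisco control then called 161 (1.44%), with 0 of the 69 tested of the 100. Fergus cold over Picker control called 1, Picker cold over PR39B29 control 0 and Codisco cold over Fergus control 0. MZ00001228 was then at an adjusted p of 0.0548 in limma.

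When replicates were left out, the median of the higher group over the loop (−0.12) ranged from −0.54 to 0.092. For PR39B29 cold over Codisco control that of the higher group (0.091) ranged from −0.76 to 1.27 and was also below 0 without replicate 3 (−0.18), and that of the lower group (−0.14) ranged from −0.90 to 0.31, turning without replicate 1. The distances of the 20 first probes, which chose them, moved by over 1.5 times in 1, 7 and 3 probes without replicates 1, 2 and 3 of all varieties (MZ00014129 from 3.85 to 1.72 without replicate 2, MZ00004528 from −3.79 to −1.74 without replicate 3).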
